A study of Mus musculus with 20 samples.

Results

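The synaptotagmin genes Syt4, Syt5, Syt7, Syt9, Syt13 and Syt14 were followed in islets, the hormone-secreting part of the pancreas, taken from P2Y14-receptor knockout mice and from wild-type mice. They were taken by name, as the rows of the deposited table whose Ensembl identifiers map to these symbols, and all 6 were found among the 26211 genes listed. Islets came from 10 P2Y14-knockout (KO) and 10 wild-type (WT) preparations, and the strain of both is given as C57BL/6 x 129S6. They were isolated with Liberase, picked by hand and cultured overnight. Age, sex and the deleted stretch of the receptor gene are not known here. Nothing in the labels ties a library to a separate animal, and p-values therefore measure only the spread between these libraries, which may be technical.

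Synaptotagmins are membrane proteins of secretory vesicles and granules with tandem C2 domains. In members whose C2 domains bind calcium, the rise of calcium that follows glucose stimulation of a beta cell brings the protein to phospholipids and to the SNARE proteins that fuse a granule with the plasma membrane, so these members act as calcium sensors of hormone release. Other members lack some or all of the calcium-binding residues. In mice, Syt7 is a calcium sensor for the release of both insulin and glucagon.

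Reads summed over genes ranged from 34520628 to 199847246 in KO libraries and from 53766074 to 168991840 in WT libraries. Across the 90 same-group pairs of libraries, chi-square per degree of freedom was at least 76.7, far beyond sampling noise. The targeted gene P2ry14 averaged 51.2 ± 31.4 normalized read counts in KO islets and 151 ± 67.4 in WT islets (SD, n = 10 each), with ranges of 0 to 113.5 in KO and 79.7 to 262 in WT that overlapped. Ins2, Gcg and Sst, which encode insulin, glucagon and somatostatin, were present in every library, at no less than 14474216, 513752 and 34450 in KO and 13377056, 1164084 and 84301 in WT. Genes of acinar cells, the enzyme-secreting exocrine cells, took 7.52 to 29.6% of the normalized counts of KO libraries and 5.76 to 29.2% of those of WT libraries. In bulk RNA, fewer cells of a type and less RNA per cell cannot be told apart.

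No difference between KO and WT islets was found for any of the 6 synaptotagmins. By limma, 0 of 6 passed an adjusted p of 0.05 over 17482 genes tested and 0 of 6 had an unadjusted p under 0.05, where 0.28% and 8.94% of all genes did (4.31% higher and 4.63% lower in KO at the unadjusted level). edgeR and DESeq2 on the recovered reads likewise called 0 of 6, where they called 0.246% and 0.784% of all genes. The values of KO and WT libraries overlapped for each of the 6, as they did for all but 0.0343% of genes tested. Of the 6 log2 differences 5 were negative, as were 50.4% of those of all genes tested, and their median was −0.10, against −0.0022 over all genes tested.

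Syt7, the calcium sensor of granule fusion with high calcium affinity, had a lowest value, median and highest value of 8477, 11499 and 12872 normalized read counts in KO libraries and 7204, 12401 and 13925 in WT libraries. The groups overlapped over most of their range, with 8 of 10 KO libraries below the WT median and the lowest value of all in WT library 20. Syt7 averaged 10993 ± 1714 in KO and 12009 ± 2110 in WT (SD, n = 10 each), a log2 difference of −0.12 (SE 0.12, adjusted p = 0.801 by limma). Its 95% interval ran from −0.37 to 0.13, that is −22.4% to 9.19% in KO relative to WT islets.

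Syt5 and Syt9 also bind calcium and have been placed on dense-core granules, and their names have been used for one another in older work, so both are given here by the annotation's symbols. Syt5 had a lowest value, median and highest value of 516, 830 and 1313 normalized read counts in KO libraries and 718, 788 and 1588 in WT libraries. Although 4 KO libraries lay below every WT library, the medians were in the other order, and WT library 16 stood alone at the top. The log2 difference of Syt5 was −0.15 (SE 0.18, 95% interval −0.53 to 0.22, adjusted p = 0.830 by limma). Syt9 had a lowest value, median and highest value of 454, 551 and 875 in KO libraries and 345, 685 and 871 in WT libraries. The WT libraries of Syt9 spanned nearly the whole KO range on both sides, and the log2 difference was −0.04 (SE 0.18, 95% interval −0.41 to 0.32, adjusted p = 0.959 by limma).

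Among the members that lack full calcium binding, Syt13 has been linked in mice to the formation of islets from endocrine precursors. Its lowest value, median and highest value were 7506, 12147 and 14055 normalized read counts in KO libraries and 10808, 12376 and 15324 in WT libraries. Apart from KO replicates 2 and 10, the KO values lay within the WT range. Syt13 averaged 11887 ± 1866 in KO and 12585 ± 1684 in WT (SD, n = 10 each), a log2 difference of −0.09 (SE 0.11, adjusted p = 0.828 by limma). The 95% interval was the narrowest of the 6, −19.3% to 9.34% in KO relative to WT.

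Syt4, whose first C2 domain carries a substitution at a calcium-binding position and which in mice lowers the calcium sensitivity of insulin release as beta cells mature, was the only member with a positive difference. It had a lowest value, median and highest value of 1101, 2342 and 2900 normalized read counts in KO libraries and 1104, 2397 and 3086 in WT libraries. The ranges nearly coincided, and the log2 difference was 0.06 (SE 0.20, 95% interval −0.35 to 0.47, adjusted p = 0.953 by limma). Syt14, a member that does not bind calcium and whose human counterpart has been linked to an inherited ataxia, had a lowest value, median and highest value of 138, 534 and 779 in KO libraries and 297, 705 and 909 in WT libraries. Here 9 of 10 KO libraries lay below the WT median, yet 9 of 10 also lay within the WT range. The log2 difference of Syt14 was −0.32 (SE 0.27, adjusted p = 0.748 by limma), with the widest 95% interval of the 6, −0.87 to 0.23. Without KO replicate 10, the lowest library, it was −0.12.

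**Figure D1:**
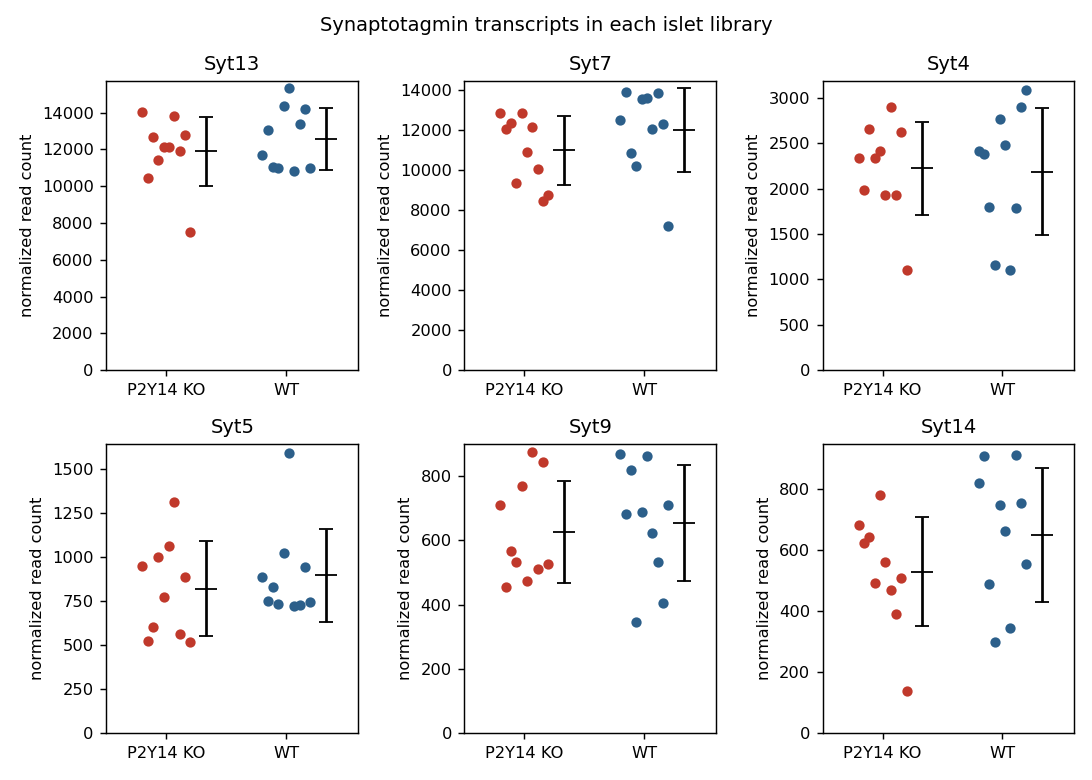
Normalized read count of each of the 6 synaptotagmins (vertical axes) in each of 10 KO (red) and 10 WT (blue) islet libraries, 1 point a library, with the mean and SD as a black bar. The groups overlap in every panel, and KO replicate 10 is the lowest KO point of Syt13, Syt4, Syt5 and Syt14.

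Reads per library were enough to measure all 6. Syt14, the lowest, had 74 to 1204 reads in KO and 213 to 1948 in WT libraries, and Syt13 had 4014 to 26635 in KO and 7441 to 28038 in WT. Counting error alone would give Syt14 a coefficient of variation of 4.89% in KO and 3.59% in WT, against 33.8% and 34.0% observed. For Syt7 counting error was 1.09% in KO and 0.855% in WT, against 15.6% and 17.6% observed. Counting error was thus a small part of the spread between libraries. From the lowest to the highest of the 20 libraries, Syt7 and Syt13 varied 1.93-fold and 2.04-fold, Syt9, Syt4 and Syt5 2.53-fold, 2.80-fold and 3.08-fold, and Syt14 6.57-fold.

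The order of the 6 was compared as normalized reads per kb of merged exons. Syt13 led with 3161 ± 496 per kb in KO and 3346 ± 448 in WT (SD, n = 10 each), followed by Syt7 with 1468 ± 229 in KO and 1604 ± 282 in WT. Syt4 had 571 ± 131 per kb in KO and 562 ± 179 in WT, and Syt5 had 344 ± 113 in KO and 375 ± 111 in WT. Syt9 had 157 ± 39.9 per kb in KO and 164 ± 45.7 in WT, and Syt14 had 44.2 ± 14.9 in KO and 54.3 ± 18.4 in WT. Within a library, Syt13 exceeded Syt7 in 20 of 20, by a geometric mean ratio of 2.13, and Syt7 exceeded Syt4, Syt5 exceeded Syt9 and Syt9 exceeded Syt14 in 20 of 20 as well. Only Syt4 and Syt5 were not separated in this way. Syt4 was above Syt5 in 17 of 20 libraries, and in 13 of 20 when the longest transcript of each gene was used as its length, so their order is not settled. These levels rest on annotated exon lengths and not on the transcripts used in islets.

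Over the 15 synaptotagmins with a mean of at least 10, Syt7 and Syt13 together made up 72.2 ± 1.91% of the summed per-kb level in KO islets and 72.4 ± 2.51% in WT islets (SD, n = 10 each). Syt13 alone made up 49.2 ± 2.18% in KO and 49.0 ± 1.62% in WT. The 6 members made up 89.5 ± 1.68% in KO and 89.3 ± 1.61% in WT. These shares differed between the groups by less than their SD within a group.

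**Figure D2:**
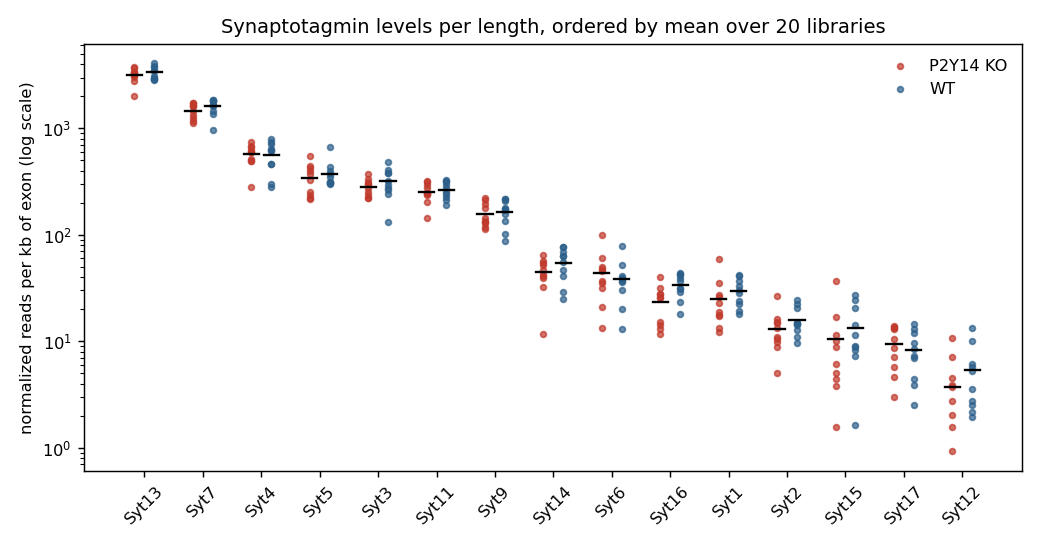
Normalized reads per kb of merged exon (log scale) of 15 synaptotagmins, ordered from left to right by their mean over 20 libraries, with KO (red) left of WT (blue), 1 point a library and a black line at the mean. Syt13 and Syt7 stand above all others, and 1 KO library in which Syt12 had 0 reads cannot be drawn on this axis.

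Of the 11 other synaptotagmins listed, 10 were in the table and 9 were tested. None passed an adjusted p of 0.05 by limma, edgeR or DESeq2, and 1, Syt16, had an unadjusted p under 0.05, where 8.94% of all genes did. Syt16, a synaptotagmin without a membrane anchor, had a lowest value, median and highest value of 106, 236 and 371 normalized read counts in KO libraries and 165, 311 and 402 in WT libraries. In 4 KO libraries Syt16 lay below every WT library. Its log2 difference was −0.59 (SE 0.23, 95% interval −1.06 to −0.13, adjusted p = 0.436 by limma).

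The median log2 difference of the 9 tested was −0.34, with 7 negative and 2 positive. Syt3 and Syt11 came next after Syt5 per kb, at 283 and 251 in KO and 317 and 266 in WT. Their log2 differences were −0.11 (95% interval −0.48 to 0.26) and −0.09 (95% interval −0.37 to 0.19). Syt1 and Syt2, the fast calcium sensors of nerve terminals, were low, with 25.0 and 13.1 per kb in KO and 29.6 and 15.9 in WT, and log2 differences of −0.34 each. Syt6 (0.15), Syt12 (−0.82), Syt15 (−0.49) and Syt17 (0.20) had intervals that included 0, and Syt8 was detected in 1 WT library, at 24.4 normalized read counts. The differences of Syt12 and Syt15 moved with single libraries and that of Syt12 with the pseudocount and the tool. Syt12 had −0.40 without KO replicate 8, in which it had 0 reads, −0.42 with a pseudocount of 10, −0.50 by edgeR and −0.52 by DESeq2. Syt15 had −0.26 without KO replicate 7, −0.74 without KO replicate 10 and −0.78 without WT library 19.

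**Figure D3:**
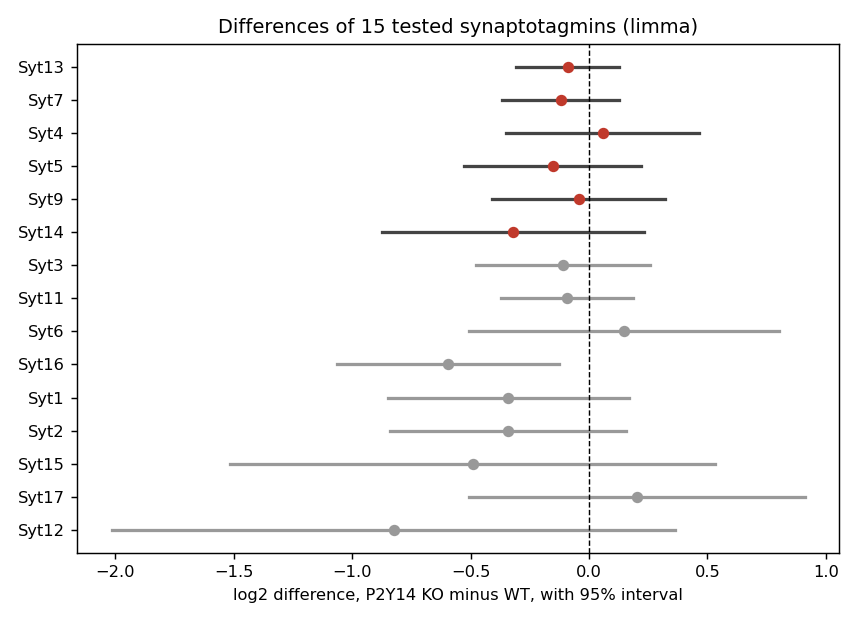
Log2 difference, KO minus WT, of 15 tested synaptotagmins (points) with its 95% interval from limma (lines), the 6 members in red and the others in grey. All intervals except that of Syt16 include 0, and that of Syt13 is the narrowest.

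Genes that work beside synaptotagmins were counted by list. Of 18 other proteins with several C2 domains that were tested, none passed by limma, edgeR or DESeq2, and 3 had an unadjusted p under 0.05, all lower in KO, where 4.63% of all genes were lower at that level. These were Otof, which encodes the hair-cell calcium sensor otoferlin (log2 −1.74), the ferlin gene Fer1l5 (−0.54) and the granule effector gene Sytl4 (−0.36). Otof averaged 88.8 ± 77.7 in KO and 196 ± 116 in WT (SD, n = 10 each), and its adjusted p was 0.471 by limma. Its log2 difference was −1.11 without KO replicate 10 and −1.15 by DESeq2. The median log2 difference of the 18 was −0.29.

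Of 30 genes of the SNARE fusion machinery, none passed by limma, edgeR or DESeq2 and 2 had an unadjusted p under 0.05, both lower in KO, where 4.63% of all genes were. Stxbp5l, which encodes tomosyn-2, an inhibitor of SNARE assembly, averaged 541 ± 154 in KO and 878 ± 326 in WT (SD, n = 10 each), a log2 difference of −0.62 (adjusted p = 0.424 by limma). The syntaxin gene Stx1a had −0.28, with an interval that included 0 (−0.57 to 0.0022). The median of the list was −0.02, close to that over all genes.

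Of 14 genes of voltage-gated calcium channels, whose opening supplies the calcium that synaptotagmins sense, none passed by limma, edgeR or DESeq2, and 3 had an unadjusted p under 0.05, all lower in KO, where 4.63% of all genes were. Cacna1h, which encodes a low-voltage-activated channel, averaged 616 ± 175 in KO and 978 ± 394 in WT (SD, n = 10 each), a log2 difference of −0.62 (adjusted p = 0.324 by limma). The auxiliary subunit gene Cacna2d3 had −0.56 and the L-type channel gene Cacna1c had −0.55. The median of the list was −0.10. Of 12 genes of the endocrine dense-core granule, none passed by any of these tools and none had an unadjusted p under 0.05. Their median was −0.12, with Ptprn2 at −0.21, Vgf at −0.24 and Ptprn at −0.18.

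Over the 20 libraries, r with the share of acinar RNA was negative for all 6 synaptotagmins, and whether it differed between them was not tested. Syt4, Syt13 and Syt14 were lower where the acinar share was higher, with Pearson's r of −0.63, −0.60 and −0.58 (permutation p = 0.00314, 0.00458 and 0.007, adjusted over 6 relations 0.0137, 0.0137 and 0.014). Spearman's rho was −0.58, −0.64 and −0.59 (permutation p = 0.00811, 0.00319 and 0.00708). The sign held within each group, at −0.55 in KO and −0.71 in WT for Syt4, −0.54 in KO and −0.65 in WT for Syt13, and −0.54 in KO and −0.64 in WT for Syt14. Without KO replicate 5 and WT library 12, the libraries farthest from the median acinar share, r was −0.70 for Syt4 (permutation p = 0.00151) and −0.68 for Syt13 (permutation p = 0.00152). For Syt14 it was −0.46 (permutation p = 0.057), and −0.48 on log2 values (permutation p = 0.0385), so without them it lay close to the threshold.

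Syt5, Syt7 and Syt9 had r of −0.27, −0.30 and −0.32 with the acinar share (permutation p = 0.251, 0.201 and 0.173), none of r past the threshold, and rho of −0.42, −0.46 and −0.35 (permutation p = 0.0706, 0.0418 and 0.129). Within groups, r of Syt9 was −0.69 in KO and 0.02 in WT. When each value was divided by the summed level of the 12 granule genes, r of Syt4, Syt13 and Syt14 was −0.53, −0.42 and −0.48, with adjusted permutation p of 0.0927, 0.14 and 0.0927.

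**Figure D4:**
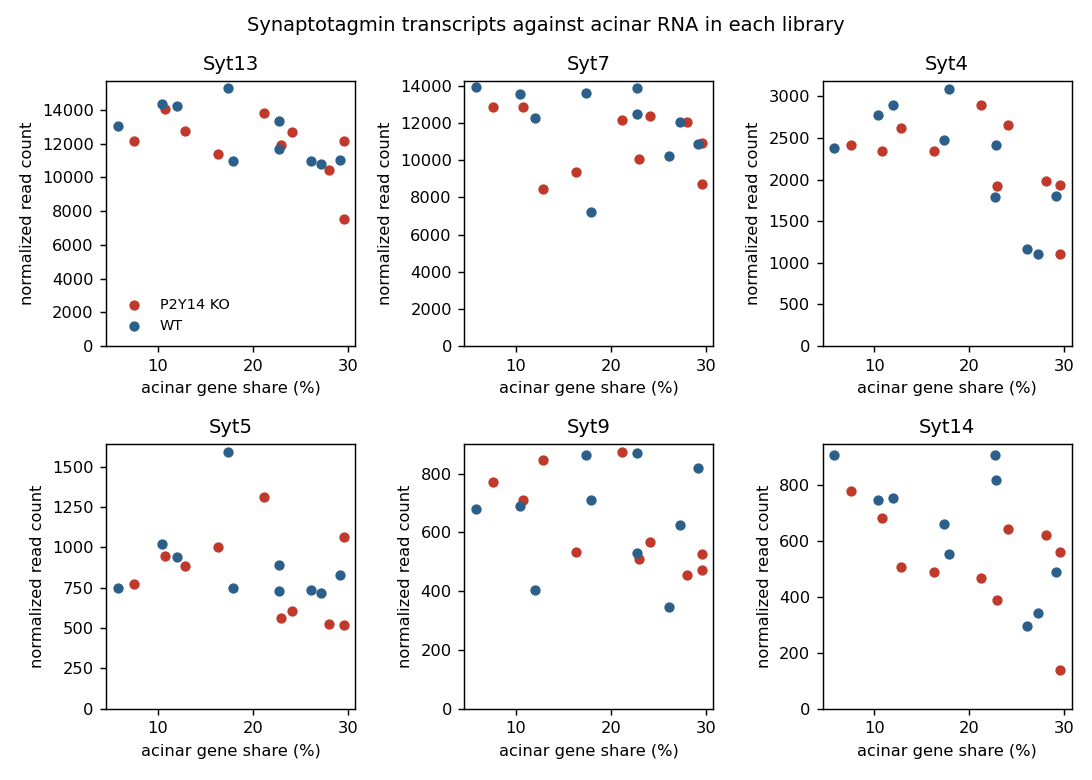
Normalized read count of each of the 6 synaptotagmins (vertical axes) against the share of acinar genes in normalized counts (percent, horizontal axes) in 10 KO (red) and 10 WT (blue) libraries. Syt13, Syt4 and Syt14 are lower toward the right in both groups. Syt9 has r of −0.69 in KO and 0.02 in WT, and the difference between these was not tested. Syt7 and Syt5 have r of −0.21 and −0.30 in KO and −0.36 and −0.23 in WT.

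The members were also set against endocrine and endothelial genes, in 24 correlations with the mean log2 levels of marker lists for beta, alpha, delta and endothelial cells. Differences between these correlations were not tested. Syt13 had the largest r of the 24, with the 10 beta cell genes, at r = 0.90 and rho = 0.91 (permutation p = 1e-05 for each, the smallest that 100000 permutations give, adjusted p = 0.00024). This r was 0.95 in KO and 0.92 in WT, and 0.89 without KO replicate 10 and WT library 16 (permutation p = 1e-05). Syt5 followed beta cell genes (r = 0.76, rho = 0.72, permutation p = 5e-05 and 0.00052) and the 6 alpha cell genes (r = 0.74, rho = 0.61, permutation p = 0.00018 and 0.0047). Without the libraries farthest from the median, these r were 0.59 (permutation p = 0.00949) and 0.60 (permutation p = 0.00889).

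Syt7 had r = 0.61 with beta cell genes and r = 0.54 with alpha cell genes (rho = 0.66 for each, adjusted permutation p of r 0.0147 and 0.0347), which were 0.51 and 0.63 without those libraries (permutation p = 0.0274 and 0.00582). Within groups, these r of Syt7 were 0.36 and 0.39 in KO and 0.72 and 0.75 in WT. Syt7 was lower where the 6 endothelial genes were higher, with r = −0.61 (rho = −0.42, permutation p = 0.00428 and 0.0677), which was −0.54 without KO replicates 8 and 10 (permutation p = 0.0215). Syt13 also had r = 0.65 with alpha cell genes and r = −0.55 with endothelial genes (rho = 0.58 and −0.47, permutation p of r 0.00155 and 0.0108). Without the libraries farthest from the median these r were 0.45 and −0.36 (permutation p = 0.0582 and 0.147), neither under 0.05. Syt14 had r = 0.63 and Syt4 r = 0.54 with beta cell genes (rho = 0.61 and 0.56, permutation p of r 0.00279 and 0.0145), which were 0.50 and 0.41 without KO replicate 10 and WT library 16 (permutation p = 0.0338 and 0.0909). Syt14 also had r = 0.49 with alpha cell genes and r = −0.50 with endothelial genes, and Syt5 had r = 0.50 with delta cell genes (rho = 0.40, −0.29 and 0.32, adjusted permutation p of r 0.0496 for each). Without the libraries farthest from the median these were 0.41, −0.14 and 0.23 (permutation p = 0.0911, 0.563 and 0.348), none under 0.05. Within groups, r of Syt5 with delta cell genes was 0.61 in KO and 0.15 in WT.

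Syt9 passed the adjusted threshold with none of the 4 lists, with r of 0.32, 0.48, 0.16 and −0.20 for beta, alpha, delta and endothelial genes (permutation p = 0.171, 0.0305, 0.512 and 0.397). All of these lists were measured in the same libraries and scaled by the same size factors, and how far each relation comes from the makeup of the preparations was not tested.

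The summed level of the alpha cell list averaged 1154896 ± 438866 in KO and 1608517 ± 337927 in WT (SD, n = 10 each), over ranges of 534555 to 1828928 in KO and 1187030 to 2279709 in WT. That of the 3 delta cell genes ran from 37896 to 124306 in KO and from 91837 to 181820 in WT. The 10 beta cell genes summed to 15490431 to 38243484 in KO and 14833168 to 37052392 in WT. Gcg, Sst and Ins2 made up most of the alpha, delta and beta sums. Gcg averaged 1118087 in KO and 1573443 in WT, and Sst 78144 in KO and 109604 in WT. The log2 difference of Gcg was −0.57 (adjusted p = 0.48 by limma), and the sums of the lists were not tested between the groups. Ins2 averaged 26673072 in KO and 23707662 in WT. The correlations above used mean log2 levels instead, in which each gene of a list counts alike. No gene of these lists was at 0 in any library. Their part in the small negative differences of the synaptotagmins was not tested. The nerve and Schwann cell list summed to 3759 to 5561 in KO and 4269 to 14635 in WT. Most of this was Th, which encodes tyrosine hydroxylase, at a mean of 4242 in KO and 6890 in WT, whereas the Schwann cell factor gene Sox10 averaged 64.3 in KO and 51.5 in WT.

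Between the members themselves, 6 of 15 pairs were correlated over the 20 libraries at an adjusted permutation p under 0.05 for r. How many pairs of other genes would pass was not counted, so these 6 pairs are not shown to be particular to synaptotagmins. Syt13 belonged to 4 of these pairs, with r of 0.76 with Syt14, 0.68 with Syt5, 0.67 with Syt4 and 0.58 with Syt7 (rho 0.58, 0.67, 0.53 and 0.65, permutation p of r 0.00054, 0.00094, 0.00103 and 0.00838). The other pairs were Syt4 with Syt14 (r = 0.70, rho = 0.38, permutation p = 0.00092 and 0.096) and Syt7 with Syt14 (r = 0.59, rho = 0.79, permutation p = 0.00701 and 5e-05). The adjusted p of r was 0.00386 for 4 of these pairs and 0.0209 for both pairs of Syt7. Without KO replicate 10 and WT library 17, r of Syt4 was 0.45 with Syt13 and 0.47 with Syt14 (permutation p = 0.0565 and 0.0515), neither under 0.05.

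The remaining 4 pairs had r from 0.52 to 0.83 without the libraries farthest from the median. Syt7 and Syt4 were not correlated beyond the spread (r = 0.12, rho = 0.16, permutation p = 0.609 and 0.508), nor were Syt7 and Syt9 (r = 0.12, rho = 0.20, permutation p = 0.626 and 0.403). None of the 5 pairs with Syt9 passed the adjusted threshold.

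**Figure D5:**
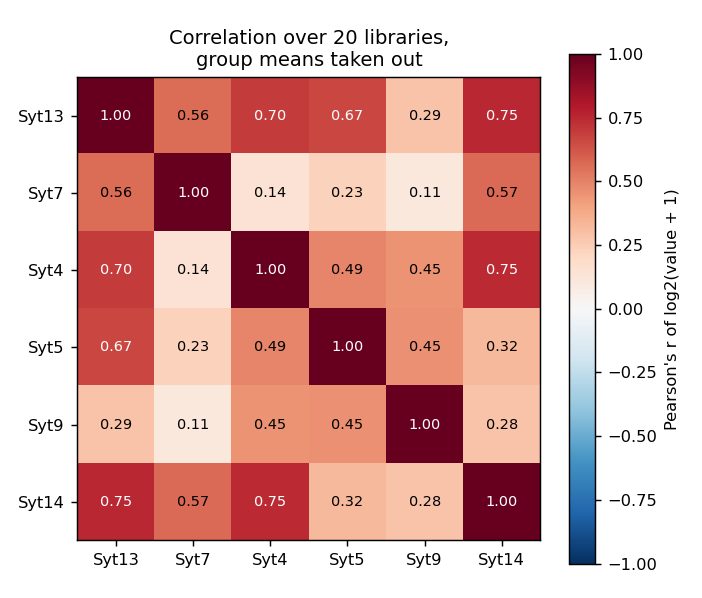
Pearson's r between log2 values of the 6 synaptotagmins over 20 libraries, after the KO mean and the WT mean of each gene were taken out (colour scale from −1 to 1). Syt13 has r of 0.56 to 0.75 with Syt7, Syt4, Syt5 and Syt14, and Syt9 has r of 0.11 to 0.45 with the others.

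Upstream sequence was at hand for Syt14 and Syt9 only among the members, and both are shown for that reason. A relation of these sequences to the correlations was not tested. These are the 250 bases before the start of each gene in RefSeq on GRCm38.p6, chr1:193035776-193036025 on the minus strand for Syt14 and chr7:107370540-107370789 on the plus strand for Syt9. Capitals mark matches to the GC box GGGCGG or its reverse complement CCGCCC and to the E-box CACGTG.
Syt14: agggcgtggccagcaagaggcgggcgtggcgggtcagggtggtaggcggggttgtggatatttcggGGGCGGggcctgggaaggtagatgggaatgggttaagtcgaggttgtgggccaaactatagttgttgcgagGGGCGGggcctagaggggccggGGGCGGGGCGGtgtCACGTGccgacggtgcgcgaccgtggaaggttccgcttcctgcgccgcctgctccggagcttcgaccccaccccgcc
Syt9: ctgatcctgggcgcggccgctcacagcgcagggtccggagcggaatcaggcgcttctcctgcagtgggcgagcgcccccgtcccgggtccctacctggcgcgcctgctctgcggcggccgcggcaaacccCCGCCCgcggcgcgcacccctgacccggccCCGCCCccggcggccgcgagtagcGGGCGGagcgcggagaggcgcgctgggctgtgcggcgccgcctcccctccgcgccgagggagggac
Syt14 had 4 matches to the GC box, 2 of them overlapping by a base, and 1 to the E-box, and Syt9 had 3 matches to the GC box and 0 to the E-box. Of 32851 promoter windows of the same length, 32.7% held a GC box and 6.02% held this E-box. Neither held the cAMP response half-site TGACG or its reverse complement CGTCA (17.8% of windows), or TATAAA or its reverse complement (12.4%). The windows were 69.2% and 80.4% G and C. These matches describe letters in the windows only.

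The genes whose log2 values were most similar to those of each member over the 20 libraries, with group means taken out, were searched among 12362 genes. For Syt13 they were Cadps, which encodes a priming factor for dense-core granules (r = 0.94), the histone macroH2A gene H2afy (0.92) and Armcx2 (0.90). For Syt5 they were Pcsk2os2 (0.90), Pcsk2, which encodes a prohormone convertase (0.89), and the glucagon gene Gcg (0.89). Pcsk2os2 is annotated as antisense, and without strand its reads cannot be told apart from those of an overlapping gene.

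For Syt7 the most similar genes were Fbxl16 (0.90), the protein kinase C epsilon gene Prkce (0.88) and the RNA-binding factor gene A1cf (0.88). For Syt14 they were Slc9a7, which encodes a sodium-proton exchanger (0.94), the sodium leak channel gene Nalcn (0.94) and the orphan receptor gene Gpr158 (0.93). For Syt4 they were ENSMUSG00000085520, unnamed in GENCODE M21 (0.94), Papola, which encodes a poly(A) polymerase (0.91), and the zinc transporter family gene Slc30a9 (0.91). For Syt9 they were Tceal1 (0.83), the calcium-binding protein gene Calb1 (0.81) and the small GTPase gene Rab3c (0.78). These r describe shared variation over 20 libraries and were chosen as the largest of many.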

How the data were processed

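RNA from 10 P2Y14-knockout and 10 wild-type islet preparations was sequenced after TruSeq RNA v2 library preparation, per the labels' protocols; the kit keeps no strand information. In the deposited table, values are read counts per gene divided by a DESeq size factor for each library, handled as a signal unit. Per the submitters' processing notes, DESeq 1.16.0, TopHat 1.3.3, Cufflinks 1.3.0, Bowtie 0.9.9, FastQC and the build mm9 were used, without a stated role. The read counter, its strand setting and its annotation were not given in the sources used here. Dividing each column by its step returned whole reads for 100% of non-zero values, within 0.05 reads.

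Names, lengths and gene order came from GENCODE M21 (GRCm38), which named 23958 of 26211 identifiers; no gene coordinates on mm9 are printed. The test was limma 3.58.1 (R 4.3.3) on log2(value + 1), with genotype as the only term, over 17482 genes with a mean of at least 10. P-values were adjusted by Benjamini-Hochberg over these genes. Correlations over libraries used 100000 permutations in numpy 2.4.6 and Python 3.11.15, two-sided, whose smallest p is 1e-05, and intervals are 95% intervals from limma. The fits were tested on simulated data. The members and gene lists were chosen with earlier results of these data known. The 6 members and all other listed synaptotagmins are named, then for each other list its 3 members with the smallest p, for each member its 3 most similar genes among those with a mean of at least 100, and its tested neighbour on either side. One gene that this rule names is not reported here. The correlations with beta, alpha, delta and endothelial lists and between members were added after the data were seen. Alternatives were pseudocounts of 0.5 and 10, no filter, a filter at a mean of 100, quantile normalization, TMM factors, edgeR 4.0.16 and DESeq2 1.42.0 on recovered reads, library weights, acinar share or granule gene level as a covariate, and each library left out. Wild-type columns are numbered 11 to 20, whereas the labels number those samples 1 to 10, so they carry no replicate number of the labels.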

Additional observations from a re-analysis of the deposited data

Results flagged for a closer look

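Among 30 groups of 10 libraries (15 synaptotagmins in KO and in WT), 4 held a library that stood apart by Dixon's test. The test was run on normalized read counts and marks about 5% of groups by chance where values are normally distributed. The values tested were not on the log2 scale of the fits. Syt5 was at 1588 normalized read counts in WT library 16, against 1020 in the next WT library. Syt1 was at 497 in KO replicate 5, against 294 in the next KO library. Syt2 was at 205 in the same KO library, against 124 in the next. Syt15 was at 191 in KO replicate 10, against 86.5 in the next. Without WT library 16 the log2 difference of Syt5 was −0.06, and without KO replicate 5 those of Syt1 and Syt2 were −0.50 and −0.47. KO replicate 10, the lowest KO library of Syt4, Syt13 and Syt14, was not marked for them on the scale tested, and log2 values were not put to this test. Syt4 was at 1101 in KO replicate 10 against 1928 in the next KO library, Syt13 at 7506 against 10464 and Syt14 at 138 against 389. Without KO replicate 10 their log2 differences were 0.17, −0.018 and −0.12, against 0.06, −0.09 and −0.32 with all libraries.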

How the results depend on the processing

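None of the 15 tested synaptotagmins passed an adjusted p of 0.05 in any alternative run, the smallest being 0.120 for Syt16 with library weights and, among the 6 members, 0.342 for Syt7 with library weights. Of 1095 values under alternatives, 1076 kept their direction and their side of the threshold, 8 changed sign, 3 lost the threshold and 8 moved. The sign of Syt9 turned with the granule gene level as a covariate (0.0042), and with 1 library left out Syt9 ran from −0.14 to 0.0087, Syt4 from −0.043 to 0.17 and Syt6 from −0.0085 to 0.32. Those of Syt5, Syt7, Syt13 and Syt14 kept a negative sign, with 1 library left out from −0.24 to −0.056, −0.20 to −0.080, −0.12 to −0.018 and −0.44 to −0.12. With the granule gene level as a covariate they were −0.039, −0.087, −0.029 and −0.21, each nearer 0 than in the main fit, whereas Syt4 was farther from 0, at 0.14. The count of 49 differing genes over the whole table was 29 when the minimum mean was raised to 100, 137 with DESeq2, 163 with library weights and 27 to 73 with 1 library left out (27 without KO replicate 4, 32 without KO replicate 8 and 30 without WT library 19). The acinar correlations past the threshold were −0.53 (Syt4), −0.42 (Syt13) and −0.48 (Syt14) after division by the granule genes. With the longest transcript as length, Syt5 had 468 per kb in KO and 511 in WT. Except for the change of length, which follows from its construction, the cause was not tested. No paired analysis was possible because the wild-type columns do not carry the replicate numbers of the labels.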

Other observations

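On their chromosomes, none of the 6 synaptotagmins had a tested neighbour past an adjusted p of 0.05. The lowest adjusted p among the 12 neighbours was that of Rit2, which encodes a neuronal small GTPase and lies beside Syt4, with a log2 difference of −0.90 (SE 0.26, adjusted p = 0.204 by limma). Dagla, a diacylglycerol lipase gene beside Syt7, had −0.24 (SE 0.20) and Mrpl17 beside Syt9 had 0.29 (SE 0.17). Syt5 and Syt9 both lie on chromosome 7, as numbers 32 and 866 of 1257 tested genes in GENCODE order. Of these 1257 genes 8 were past the threshold, where 0.28% of all genes tested were. The 8 lay from number 529 to number 922, and the nearest to Syt9 was 22 genes away. Syt9 lay inside this wide span, with its own log2 difference at −0.04 (95% interval −0.41 to 0.32). Gm23583, an annotated gene inside Syt14 on the same strand, averaged 2.08 normalized read counts in KO and 2.64 in WT.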
